A study of Mus musculus with 7 samples.

Results

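Runx3 occupancy and the enhancer mark H3K4me1 (histone H3 monomethylated at lysine 4) were examined at 10 genes of the transforming growth factor beta (TGF-beta) pathway in resting splenic CD8+ T cells (CD8-TC). The genes were Tgfb1, Tgfbr1, Tgfbr2, Tgfbr3, Smad2, Smad3, Smad4, Smad7, Ski and Skil. A region belonged to a gene when its midpoint lay in the annotated gene body or within 20 kb of it, an interval called the gene window here. The 10 windows held 12 of the 4934 Runx3-bound regions and 169 of the 76705 H3K4me1-marked regions of the mouse genome build mm9. All cells came from wild-type (WT) ICR mice, were collected from 18 mice per the labels, were freshly isolated on anti-CD8 magnetic beads and received no stimulation. Chromatin was immunoprecipitated and sequenced (ChIP-seq) in 7 libraries. Of these, 3 from 2 repeats used an in-house polyclonal antibody to Runx3. A further 2 used an antibody to H3K4me1, and 2 used non-immune serum from rabbit (NIS) as control. Each antibody has 1 list of regions, called by the authors on joined repeats against NIS. The lists give positions only, so no value below has a replicate error and the number of reads in a region is not known.

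TGF-beta restrains the proliferation of T cells and, in CD8-TC, induces the integrin gene Itgae. The ligand encoded by Tgfb1 binds the receptor kinase Tgfbr2, which activates the receptor kinase Tgfbr1, and the co-receptor Tgfbr3 (betaglycan) presents ligand. Tgfbr1 then phosphorylates Smad2 and Smad3, which enter the nucleus with their common partner Smad4. Smad7 blocks the receptors, and Ski and Skil (SnoN) are co-repressors that bind Smad proteins. Runx proteins bind a short DNA motif, searched here as TGTGGT or TGTGGC and as the rarer TGCGGT or TGCGGC, and are known to interact with Smad proteins. H3K4me1 marks enhancers and the flanks of active promoters.

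The sequences of 8 Runx3-bound regions are shown because they carry the motif content described below. Each region is named by its gene and the distance of its midpoint from the annotated 5′ end of the gene (TSS), negative when upstream. Printed are the 300 bases around each midpoint on the plus strand of mm9, with matches to the 4 RUNX variants on either strand in capitals. In the order of the lines, the windows are chr9:116097964-116098263, chr9:116032373-116032672, chr5:107694057-107694356, chr9:63588369-63588668, chr9:63568730-63569029, chr4:154574991-154575290, chr4:154536585-154536884 and chr3:30992624-30992923.
Tgfbr2 -13.7 kb: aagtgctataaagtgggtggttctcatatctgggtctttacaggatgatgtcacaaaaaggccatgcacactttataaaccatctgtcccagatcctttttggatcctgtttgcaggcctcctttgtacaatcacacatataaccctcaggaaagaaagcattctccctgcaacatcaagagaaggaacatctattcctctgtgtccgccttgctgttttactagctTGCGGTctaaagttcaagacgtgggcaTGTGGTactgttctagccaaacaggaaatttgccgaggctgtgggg
Tgfbr2 +51.9 kb: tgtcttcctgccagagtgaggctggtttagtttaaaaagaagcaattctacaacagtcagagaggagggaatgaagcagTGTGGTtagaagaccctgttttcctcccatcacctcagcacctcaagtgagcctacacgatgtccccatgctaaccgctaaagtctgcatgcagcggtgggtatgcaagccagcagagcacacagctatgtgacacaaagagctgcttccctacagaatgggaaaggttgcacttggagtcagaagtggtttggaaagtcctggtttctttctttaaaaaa
Tgfbr3 +24.4 kb: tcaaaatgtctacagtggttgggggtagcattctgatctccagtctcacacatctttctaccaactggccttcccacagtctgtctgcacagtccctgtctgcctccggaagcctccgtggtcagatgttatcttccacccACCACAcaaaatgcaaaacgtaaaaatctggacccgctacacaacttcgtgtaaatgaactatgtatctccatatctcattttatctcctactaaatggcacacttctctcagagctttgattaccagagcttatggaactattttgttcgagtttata
Smad3 +17.3 kb: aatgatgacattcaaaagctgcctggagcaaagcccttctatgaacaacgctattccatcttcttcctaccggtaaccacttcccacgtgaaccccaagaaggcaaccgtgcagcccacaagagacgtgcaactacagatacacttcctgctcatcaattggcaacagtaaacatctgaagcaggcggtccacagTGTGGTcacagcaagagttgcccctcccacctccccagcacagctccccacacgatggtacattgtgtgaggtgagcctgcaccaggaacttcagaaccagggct
Smad3 +36.9 kb: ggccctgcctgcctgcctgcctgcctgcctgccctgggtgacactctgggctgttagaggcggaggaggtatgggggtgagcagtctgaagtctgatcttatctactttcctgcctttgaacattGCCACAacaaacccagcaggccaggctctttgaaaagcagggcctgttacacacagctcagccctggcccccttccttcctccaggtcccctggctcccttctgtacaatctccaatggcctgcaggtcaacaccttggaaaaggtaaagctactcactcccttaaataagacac
Ski +21.6 kb: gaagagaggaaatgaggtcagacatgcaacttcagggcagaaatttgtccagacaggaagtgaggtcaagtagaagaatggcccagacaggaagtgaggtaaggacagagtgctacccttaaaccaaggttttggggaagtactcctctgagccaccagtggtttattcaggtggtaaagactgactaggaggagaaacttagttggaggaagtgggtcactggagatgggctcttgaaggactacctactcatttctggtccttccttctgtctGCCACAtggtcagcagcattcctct
Ski +60.0 kb: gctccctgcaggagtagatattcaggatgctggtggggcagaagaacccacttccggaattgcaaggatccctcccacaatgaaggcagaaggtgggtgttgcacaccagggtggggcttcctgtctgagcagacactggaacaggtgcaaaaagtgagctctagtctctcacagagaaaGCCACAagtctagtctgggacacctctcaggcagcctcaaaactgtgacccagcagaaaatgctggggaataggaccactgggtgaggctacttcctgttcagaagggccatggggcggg
Skil -1.21 kb: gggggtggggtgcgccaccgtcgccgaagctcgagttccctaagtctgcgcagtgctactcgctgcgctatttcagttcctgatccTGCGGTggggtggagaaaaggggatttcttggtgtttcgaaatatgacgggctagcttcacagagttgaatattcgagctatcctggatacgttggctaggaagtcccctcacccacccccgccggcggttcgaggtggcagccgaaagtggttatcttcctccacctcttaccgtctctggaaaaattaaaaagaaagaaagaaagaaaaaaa

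Of the 8 windows, 7 hold 1 match each. In Ski +21.6 kb the match lies near the end of the window, and the whole region holds 6 matches. In Tgfbr2 -13.7 kb a TGCGGT and a TGTGGT lie 27 bp apart, the closest pair among the 12 regions.

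Of the 10 genes, 7 held at least 1 Runx3-bound region in their window, against 19.8% of 22350 protein-coding genes with the same kind of window. Tgfbr2 held 3 regions, Smad3, Smad7 and Ski held 2 each, and Tgfb1, Tgfbr3 and Skil held 1 each. Tgfbr1, Smad2 and Smad4 held 0. Of the signalling receptor pair, Tgfbr2 held 3 regions and Tgfbr1 held 0, and of the 3 Smads that carry the signal only Smad3 held any. The inhibitors Smad7, Ski and Skil each held at least 1. The single regions of Skil and Tgfb1 lay outside the gene, and in the gene body alone both genes held 0. Skil also held 0 among regions at or above the median width, and Tgfb1 with a margin of 5 kb or by nearest protein-coding TSS. There were 2 or more regions at 4 of the 10 genes and at 4.67% of all protein-coding genes, and 3 or more at 1 of the 10 and at 1.35% of all. In the gene body alone or with a margin of 5 kb, 2 of the 10 held 2 (Smad3 and Ski) and 0 held 3, with 1 region each at Tgfbr2 and Smad7. Among regions at or above the median width, 2 of the 10 held 2 (Tgfbr2 and Ski). No replicate test of these counts was possible, and a gene with 0 regions cannot be told from one with occupancy under the calling threshold. In a preparation from many cells, occupancy in more cells and stronger occupancy per cell cannot be told apart.

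The windows of the 10 genes are long and carry much H3K4me1, and both move with these counts. Their median length was 104 kb against 55.4 kb over all genes. A Runx3-bound region was present at 25.7% of the genes with at least 1 H3K4me1-marked region. Among the 10279 genes whose window was at least as long as the shortest of the 10 (58.1 kb), 25.5% held a Runx3-bound region. Among the 3691 genes with at least as much H3K4me1-covered length as the least covered of the 10 (12.5 kb), 55.6% did. Runx3-bound regions that overlapped H3K4me1 numbered 3.31 per 100 kb of covered length in the 10 windows and 3.56 over the whole list. Per length of window they held 1.07 regions per 100 kb against 0.312 over all gene windows. The part of window length and of H3K4me1 in the count of 7 genes was not tested.

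**Figure D1:**
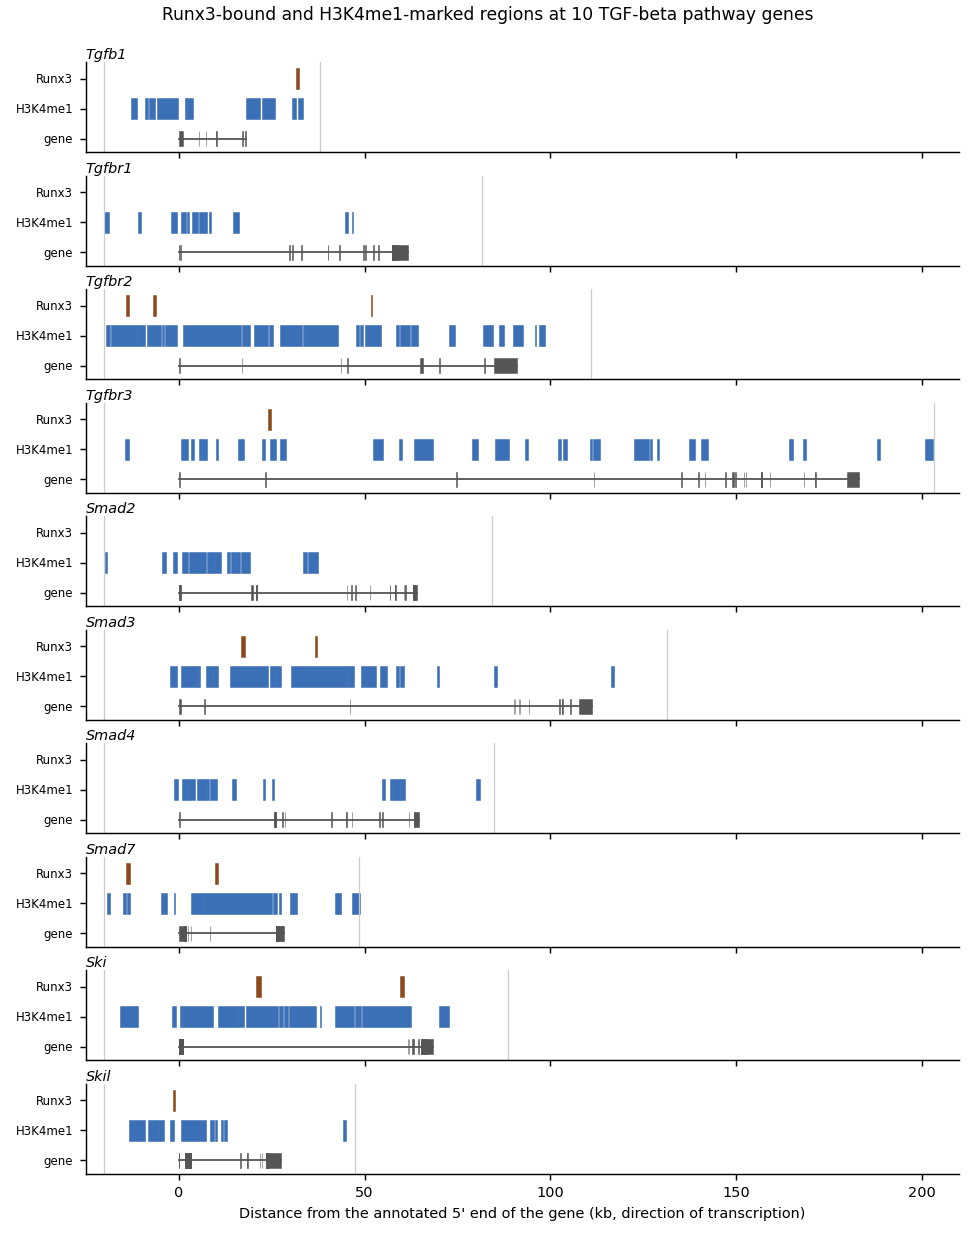
Runx3-bound regions (brown), H3K4me1-marked regions (blue) and annotated exons (grey) at the 10 genes, plotted by distance from the annotated 5′ end in kb in the direction of transcription; grey vertical lines mark the ends of the window of 20 kb on each side. The 12 Runx3-bound regions lie at 7 of the genes, and the Runx3 rows of Tgfbr1, Smad2 and Smad4 are empty.

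Tgfb1, the ligand gene (ENSMUSG00000002603.9, chr7:26472021-26490096, plus strand), had its only Runx3-bound region outside its own body. The region at chr7:26503549-26504476 was 928 bp wide and lay 13.9 kb beyond the 3′ end of Tgfb1. Its midpoint fell in an untranslated exon of Ccdc97, 95 bp from the nearest coding TSS, which is that of Ccdc97. It was the only one of the 12 regions whose nearest protein-coding TSS belonged to another gene and the only one less than 1 kb from such a TSS. It held 4 RUNX motifs, of which 3 were of the TGCGGT or TGCGGC kind. The window of Tgfb1 was 58.1 kb long, overlapped 5 other protein-coding genes (Exosc5, Tmem91, B9d2, Ccdc97 and Hnrnpul1), and held 10 H3K4me1-marked regions that covered 38.2% of it. The widest of these, 5.75 kb, ended 198 bp upstream of the Tgfb1 TSS.

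Among the receptors, Tgfbr2 (ENSMUSG00000032440.5, chr9:115993415-116084383, minus strand) held the most Runx3-bound regions in its window, 3 against 1 at Tgfbr3, although both held 1 in the gene body alone or with a margin of 5 kb. The region Tgfbr2 -6.48 kb (chr9:116090388-116091342) was 955 bp wide, and Tgfbr2 -13.7 kb (chr9:116097633-116098593) was 961 bp wide. Both were intergenic, lay 7.25 kb apart, and were completely covered by H3K4me1-marked regions of 3.78 and 7.06 kb. The region Tgfbr2 +51.9 kb (chr9:116032263-116032782) lay in intron 4 of 7 and was the narrowest of the 12 at 520 bp, with only 2.57% of all Runx3-bound regions as narrow or narrower. It was covered by an H3K4me1-marked region of 4.39 kb. The Tgfbr2 window held 28 H3K4me1-marked regions that covered 59.3% of its 131 kb, and 99.7% of protein-coding genes had the same or a lower cover. Its widest, 15.5 kb in length, began 1206 bp downstream of the TSS and overlapped no Runx3-bound region.

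Sequence upstream of Tgfbr2 held further Runx3-bound regions. When each region was given to the gene with the nearest protein-coding TSS at any distance, 10 regions went to Tgfbr2, of which 7 lay outside its window, between 39.3 and 209 kb upstream. All 10 overlapped H3K4me1, and 9 of the 10 held a RUNX motif, the exception being the most distant one (chr9:116292978-116293944). Of 22350 protein-coding genes, 4 (0.0179%) were nearest to 10 or more Runx3-bound regions. The 230 kb upstream of the Tgfbr2 TSS overlapped 0 other protein-coding genes, and the part of this length in the count was not tested.

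**Figure D2:**
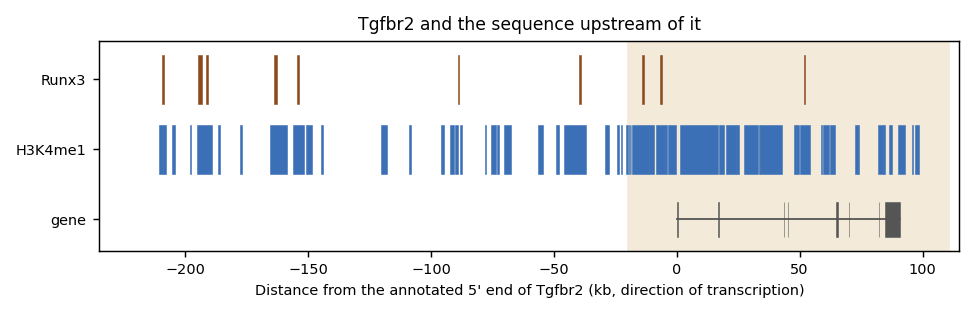
Runx3-bound regions (brown), H3K4me1-marked regions (blue) and exons (grey) from 230 kb upstream of Tgfbr2 to 20 kb beyond its 3′ end, by distance from its 5′ end in kb; shading marks the gene window. Of the 10 Runx3-bound regions, 3 lie in the window and 7 upstream of it.

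Tgfbr3 (ENSMUSG00000029287.8, chr5:107535589-107718648, minus strand), the longest of the 10 genes at 183 kb, held 1 region. Tgfbr3 +24.4 kb (chr5:107693770-107694643) was 874 bp wide and lay in intron 2 of 16. H3K4me1 covered 48.4% of it, and its midpoint lay 14 bp beyond the edge of an H3K4me1-marked region of 1.09 kb. The window held 34 H3K4me1-marked regions, the most of the 10, but they were narrow (median 906 bp) and covered 19.9% of it. A second region, 26.6 kb downstream of the gene, was the nearest one left out by the limit of 20 kb, and the next was 39.3 kb upstream of Tgfbr2. The outermost regions inside the limit lay 13.7 kb (Smad7 and Tgfbr2) and 13.9 kb (Tgfb1) from their genes.

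Tgfbr1 (ENSMUSG00000007613.9, chr4:47366094-47427803, plus strand) held 0 Runx3-bound regions, and the nearest was 50006 bp upstream of its TSS, with Col15a1 as the nearest gene. Its 12 H3K4me1-marked regions covered 12.3% of the window, the lowest share of the 10, and the widest measured 1.61 kb. With neighbours within 1000 bp merged, its widest measured 10.8 kb. Its H3K4me1-marked regions also held the fewest RUNX motifs per length, 1.19 per kb against 1.94 per kb over all H3K4me1-marked regions.

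Of the signal transducers, Smad3 (ENSMUSG00000032402.6, chr9:63494574-63605801, minus strand) held 2 regions, both in intron 1 of 8. Smad3 +17.3 kb (chr9:63587955-63589081) was 1127 bp wide and lay inside an H3K4me1-marked region of 10.1 kb. Smad3 +36.9 kb (chr9:63568498-63569260) was 763 bp wide and lay inside one of 15.0 kb. Each held 1 RUNX motif, 48.5 and 21.5 bp from its midpoint. Annotated alternative starts of Smad3 lie in this intron, so that the distance to the nearest protein-coding TSS was 10.4 and 9.10 kb. H3K4me1 covered 32.6% of the Smad3 window.

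Smad2 (ENSMUSG00000024563.9, chr18:76401234-76465385, plus strand) and Smad4 (ENSMUSG00000024515.7, chr18:73798663-73863434, minus strand) held 0 Runx3-bound regions. The nearest lay 666 kb beyond the 3′ end of Smad2 and 127 kb upstream of Smad4, and their nearest genes were Skor2 and Me2. Both windows carried H3K4me1, with 13 regions that covered 21.3% of the window at Smad2 and 14 regions that covered 17.0% at Smad4. The share of protein-coding genes with the same or a lower cover was 86.1% for Smad2 and 80.0% for Smad4. These loci were thus marked but without a called Runx3-bound region. The cover of the 3 genes with 0 regions ranged from 12.3 to 21.3% and that of the 7 others from 19.9 to 59.3%, and the ranges overlap only through Tgfbr3 and Smad2.

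Smad7 (ENSMUSG00000025880.5, chr18:75527183-75555589, plus strand), the inhibitory Smad, lies on the same chromosome as Smad2 and Smad4 and held 2 regions. Smad7 -13.7 kb (chr18:75512980-75513989) was intergenic, 1010 bp wide and held 6 RUNX motifs. H3K4me1 covered 75.6% of it, in a region of 845 bp that was narrower than the Runx3-bound region itself. Smad7 +10.2 kb (chr18:75536932-75537745) lay in intron 3 of 3, was 814 bp wide and held 2 motifs. It lay inside the widest H3K4me1-marked region of the 10 genes as called, 18.3 kb in length (chr18:75534115-75552403). Of the 76705 regions, 43 were as wide or wider. With neighbours within 1000 bp merged, the widest was 27.7 kb at Ski, ahead of 24.2 kb at Smad7. H3K4me1 covered 48.6% of the Smad7 window. A further 2 Runx3-bound regions had Smad7 as the gene with the nearest TSS, 88.7 kb upstream and 83.1 kb downstream of the gene, and both overlapped H3K4me1.

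Of the co-repressor genes, Ski (ENSMUSG00000029050.8, chr4:154528184-154596701, minus strand) held 2 regions in intron 1 of 6. Ski +21.6 kb (chr4:154574481-154575800) was the widest of the 12 at 1320 bp, and 97.3% of all Runx3-bound regions were as narrow or narrower. It held 6 RUNX motifs, of which 4 were TGTGGT, inside an H3K4me1-marked region of 8.62 kb. Windows of equal width 5 kb to either side held 7 and 5 motifs, so the number in the region was not above its surroundings. Ski +60.0 kb (chr4:154536231-154537237) was 1007 bp wide and held 1 motif, inside an H3K4me1-marked region of 13.2 kb. H3K4me1 covered 57.4% of the Ski window, and 99.6% of protein-coding genes had the same or a lower cover.

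Skil (ENSMUSG00000027660.9, chr3:30993980-31021499, plus strand) had the Runx3-bound region closest to its own TSS. Skil -1.21 kb (chr3:30992470-30993077) was 608 bp wide and intergenic, and only 8.61% of all Runx3-bound regions were as narrow or narrower. H3K4me1 covered 33.1% of it, the least of the 12, and its midpoint lay 103 bp from the edge of an H3K4me1-marked region of 1.14 kb, in the gap of the mark around the TSS. It held 1 RUNX motif, a TGCGGT 60.5 bp from the midpoint. H3K4me1 covered 30.7% of the Skil window.

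**Figure D3:**
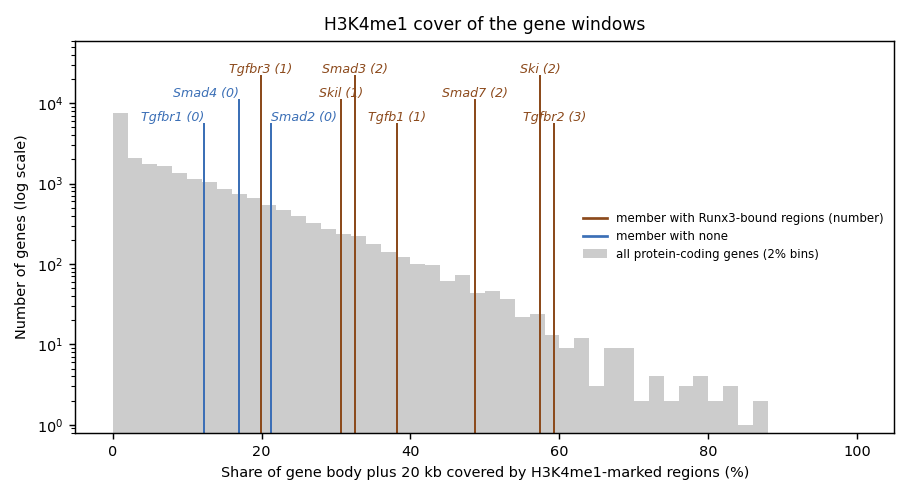
Share of each window covered by H3K4me1-marked regions (horizontal axis, %) for all protein-coding genes (grey, number of genes in bins of 2% on a log scale) and for the 10 genes (lines, with the number of Runx3-bound regions in brackets). The 3 genes with 0 Runx3-bound regions lie between 12.3 and 21.3%, and Tgfbr2 and Ski lie highest at 59.3 and 57.4%.

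Each of the 10 windows held at least 10 H3K4me1-marked regions, a threshold chosen after the values were seen, against 14.6% of all protein-coding genes. At least 1 such region was present at 73.6% of all genes. With neighbours within 1000 bp merged, only Tgfbr2 (11), Tgfbr3 (24) and Smad3 (11) held 10 or more. Among regions at or above the median width, Tgfb1 (8), Tgfbr1 (6), Smad4 (9), Smad7 (6) and Skil (6) fell below 10. Median cover was 31.7% over the 10 windows and 5.75% over all genes, and all 10 lay above that median. Cover above 25.1%, the 90th percentile of all genes, was found at 6 of the 10 (Tgfbr2, Ski, Smad7, Tgfb1, Smad3 and Skil). By position, 119 of the 169 regions had their midpoint in an intron, 45 were intergenic, 4 lay in an untranslated exon and 1 in coding sequence.

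As called, broad H3K4me1-marked regions occurred at 4 genes. Regions of 10 kb or more numbered 5 of 169 in the windows (2.96%) and 301 of 76705 in the list (0.392%). They lay at Smad3, which held 2, and at Tgfbr2, Smad7 and Ski, and 1.43% of all protein-coding genes held such a region in their window. Of the 5, 4 overlapped a Runx3-bound region, as did 54.2% of all 301. The count of genes depended on how the mark was split. With neighbours within 1000 bp merged, the widest region also reached 10 kb at Skil (12.4 kb), Tgfbr1 (10.8 kb) and Smad2 (10.5 kb). Tgfbr1 and Smad2 held 0 Runx3-bound regions. Of all 48155 merged regions, 1279 were as wide as that of Smad2 or wider. H3K4me1-marked regions that overlapped Runx3 in the windows numbered 13 of 169 (7.69%, Wilson 95% interval 4.55 to 12.7%, against 5.49% of the whole list). Their widths had a median of 4390 bp and ranged from 845 to 18289 bp. The other 156 had a median of 1164 bp and ranged from 308 to 15451 bp, so the ranges overlapped. Over the whole list the medians were 2260 and 946 bp. No test was made, as width itself enters whether a region overlaps another.

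**Figure D4:**
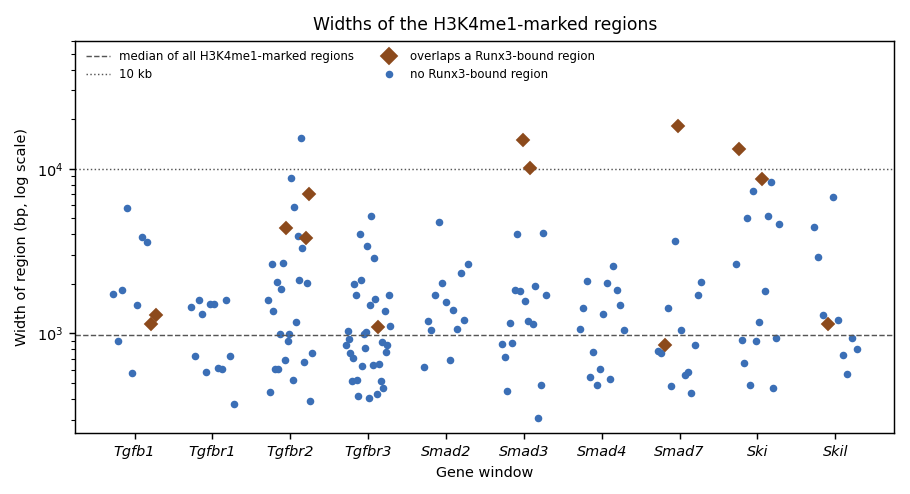
Width in bp (log scale) of each of the 169 H3K4me1-marked regions by gene window, in order of position within a window. Brown diamonds overlap a Runx3-bound region and blue points do not; the dashed line is the median of the whole list (979 bp) and the dotted line 10 kb. The diamonds of Smad3 and Ski and 1 of the 2 of Smad7 lie highest, whereas the other of Smad7 and those of Tgfb1, Tgfbr3 and Skil lie near the dashed line.

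None of the 10 annotated 5′ ends of the genes lay inside an H3K4me1-marked region, beside 17.7% of those of all protein-coding genes. With only 10 genes these shares are not far apart, and the difference was not tested. Of the 33 starts of coding transcripts annotated at the 10 genes, alternative ones included, 4 lay inside the mark, 2 at Skil and 1 each at Smad3 and Smad4. The nearest edge lay between 198 bp (Tgfb1) and 865 bp (Smad7) from the TSS. At 8 of the 10 genes a marked region lay within 2 kb on both sides of the unmarked TSS, a pattern found at 29.3% of all genes. All 10 windows held marked regions, as did 73.6% of all genes, and the part of this in the contrast was not tested. The unmarked gap measured 993 bp at Tgfbr1, 1231 bp at Smad4, 1240 bp at Smad2, 1256 bp at Smad3, 1272 bp at Ski, 1675 bp at Tgfbr2, 1903 bp at Tgfb1 and 1989 bp at Skil. It was larger at the other two genes, 4069 bp at Smad7 and 14066 bp at Tgfbr3, where the nearest marked region upstream lay 13418 bp away. The 3 genes without Runx3-bound regions had the 3 shortest gaps, although Smad3 and Ski, with 2 Runx3-bound regions each, had gaps close to that of Smad2.

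All 12 Runx3-bound regions of the pathway genes overlapped an H3K4me1-marked region (Wilson 95% interval 75.8 to 100%, counting error over regions only, which are not independent where they share a gene), against 78.8% of the whole list. The midpoint lay inside the mark in 9 of 12, against 66.1% of the list. The 3 others were at Tgfb1, Tgfbr3 and Skil, where it lay between 14 and 103 bp from the nearest edge. At Tgfb1 the region spanned a gap between 2 marked regions. By position, 7 of the 12 lay in introns of the gene itself and 4 between genes, all upstream of the gene. The nearest protein-coding TSS was more than 5 kb away for 10 of 12, against 70.8% of the list, the exceptions being those at Tgfb1 and Skil. With noncoding transcripts counted as well, 8 of 12 lay more than 5 kb from any TSS. The median width was 941.5 bp (range 520 to 1320 bp) against 851 bp over the list, and 8 of the 12 were wider than that.

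RUNX motifs were present in all 12 regions (Wilson 95% interval 75.8 to 100%), against 88.8% of the list, and numbered 31, with a median of 2 per region in both sets. In the 200 bp around the midpoint they were present in 10 of 12 (83.3%, interval 55.2 to 95.3%), against 66.0% of the list, and in 8 of 24 windows 5 kb to either side. The exceptions were Ski +21.6 kb, with its nearest motif 128 bp from the midpoint, and Tgfbr2 -6.48 kb, with its single motif 410 bp from it. In the 100 bp around the midpoint the share was 41.7%, against 43.9% of the list. Motif numbers of whole regions were set beside windows of equal width 5 kb to either side. Both windows held fewer at Tgfb1 +32.0 kb, Tgfbr2 -13.7 kb, Tgfbr2 +51.9 kb and Smad7 -13.7 kb. Both held more at Smad3 +36.9 kb (3 and 2 against 1) and Ski +60.0 kb (4 and 3 against 1). At the other regions the windows were mixed or tied. Of the 31 motifs, 14 were TGTGGC, 12 TGTGGT, 4 TGCGGT and 1 TGCGGC. Without Smad7 -13.7 kb, TGTGGC and TGTGGT numbered 10 each, and in the 200 bp around the midpoint each was present in 4 of 12 regions. Over the list TGTGGT made up 52.3% of the motifs and TGTGGC 31.0%. The TGCGGT and TGCGGC motifs were found in only 3 of the 12 regions, those of Tgfb1, Skil and Tgfbr2 -13.7 kb.

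**Figure D5:**
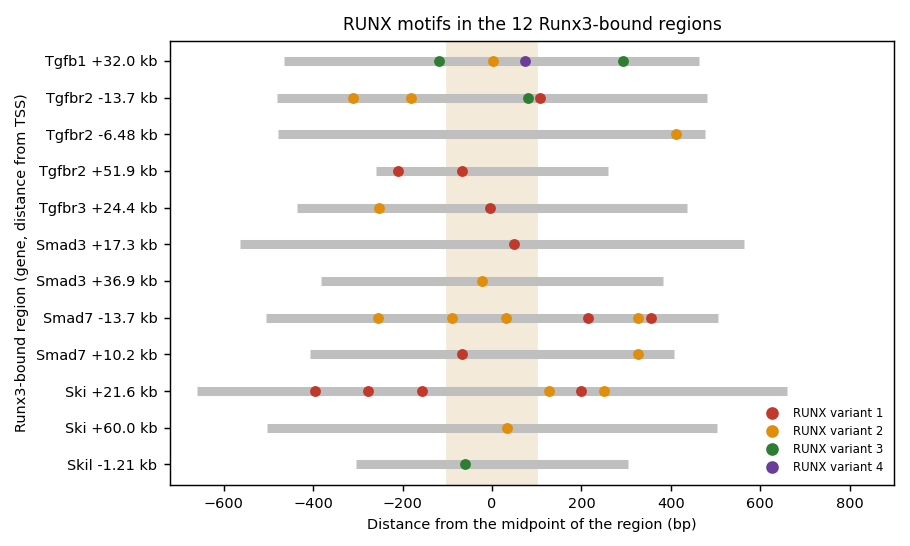
Positions of the 31 RUNX motifs (points) in the 12 Runx3-bound regions (grey bars, to scale), by distance from the midpoint in bp in the direction of the genome sequence. Colours stand for TGTGGT (variant 1), TGTGGC (variant 2), TGCGGT (variant 3) and TGCGGC (variant 4), and shading marks the 200 bp around the midpoint. It holds a motif in 10 of the 12 regions and none in Tgfbr2 -6.48 kb and Ski +21.6 kb.

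Motifs of other factors were counted in the same 200 bp on both strands, where matches of different motifs may share bases. The ETS motif, taken as AGGAAA or AGGAAG and as CGGAAA or CGGAAG, was present in 11 of 12 regions (91.7%, Wilson 95% interval 64.6 to 98.5%), against 63.8% of the list and 11 of 24 windows 5 kb away. Smad7 -13.7 kb was the only one without it. CAGAC, the short sequence bound by Smad proteins, was present in 7 of 12 (58.3%, interval 32.0 to 80.7%), against 39.3% of the list. It was also present in 12 of 24 windows 5 kb away, a share close to that at the midpoints. The AP-1 motif (TGACTCA or TGAGTCA) was present in 2 of 12, Tgfbr2 -6.48 kb and Smad7 -13.7 kb, against 4.58% of the list. With 12 regions these intervals are wide.

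RUNX motifs occurred widely in H3K4me1-marked regions that were not bound. Of the 156 marked regions of the windows without Runx3, 131 (84.0%) held at least 1 motif. Marked regions held 1.58 motifs per kb at the 3 genes without Runx3-bound regions and 2.17 per kb at the 7 others. The values of single genes overlapped. The former held 1.19 (Tgfbr1), 1.62 (Smad2) and 1.79 (Smad4) per kb, whereas of the latter Skil lay below Smad2 and Ski was highest at 2.73 per kb.

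Other genes of the TGF-beta superfamily were examined as a list of 44. Of these, 6 (13.6%) held a Runx3-bound region in their window, beside 19.8% of all protein-coding genes, and 43 held an H3K4me1-marked region. The order of these shares depended on the margin. In the gene body alone 5 of the 44 (11.4%) held a Runx3-bound region, beside 8.52% of all genes, and with 50 kb 17 (38.6%) did, beside 30.8%. Of 10 genes for ligands and their activation, 0 held a Runx3-bound region, as did 0 of 4 other Smads (Smad1, Smad5, Smad6 and Smad9) and 0 of 4 genes of the kinase branch. Of 10 further receptors 1 did, Eng, which encodes the co-receptor endoglin. Of 16 regulators of receptors and Smads 5 did. Nedd4l, a ubiquitin ligase that acts on Smads and receptors, held 2 regions in an intron, 31.8 and 33.4 kb from its TSS. They measured 944 and 936 bp, overlapped H3K4me1 and held 4 and 3 RUNX motifs. Of the 7 Runx3-bound regions at the 44 genes 5 overlapped H3K4me1, and the region at Eng did not. The other regulators held 1 each and, like Eng, were named after their values were seen: Smurf1, a ubiquitin ligase, Pmepa1, which binds Smads, Tgif1, a co-repressor, and Xpo1, a nuclear exporter. Median cover by H3K4me1 was 9.54% over the 44 genes, between 5.75% over all genes and 31.7% over the 10.

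The labelled cell type was compared with marker genes. The 7 markers of CD8-TC (Cd3e, Cd3d, Cd3g, Cd8a, Cd8b1, Lck and Cd247) each held Runx3-bound regions, and H3K4me1 covered 29.4 to 50.4% of their windows. B cell markers were also marked, with 18.0 to 41.2% of the windows of 5 genes covered and Runx3-bound regions at 3 of them. Windows of 4 myeloid, 2 natural killer and 2 erythroid markers were covered by 0 to 31.2%. The highest of these were Itgam at 31.2%, the only one with a Runx3-bound region, and Klrb1c at 23.5%, and Lyz2 and Ncr1 had 0 regions of either list. The cells were more than 95% pure per the labels, and the part of other cells in the H3K4me1 values of the pathway genes was not tested.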

How the data were processed

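ChIP-seq libraries (7: 3 Runx3, 2 H3K4me1, 2 NIS) were made from CD8-TC, sheared to about 300 bp and read at 40 to 42 bp per the labels. The authors aligned reads to mm9 with ELAND, kept unique reads, joined the repeats and called regions with MACS against NIS, with the larger set scaled to the smaller. The submitters' processing notes name CASAVA 1.6 and 1.7. The deposited lists give positions in bp without score, height or counts. Starts were shifted by 1 bp. Positions were used with the NCBIM37 sequence (mm9) and its GENCODE annotation.

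Overlap meant at least 1 shared bp. TSS distances were taken from midpoints. Intron numbers refer to the transcript with the longest coding sequence. Motifs were searched on both strands, and each place was counted once. Shares have Wilson 95% intervals. No tests were made, as each list joins its repeats. The genes and lists were chosen with earlier results of these data known. All 10 genes and all their Runx3-bound regions were named; of the 44 other genes, those with 2 or more regions were named by rule, and the others that the text names were chosen after their values were seen. Regions for printing were taken outside chromosome 18 and annotated exons, by motif number and at most 2 per gene. Interval and motif functions were tested on simulated data. Python 3.11.15, scipy 1.17.1, pysam 0.24.0 and matplotlib 3.10.9 were used.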

Additional observations from a re-analysis of the deposited data

How the results depend on the processing

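Of 31 alternative values for 7 summary results, 19 kept their reading and 12 moved. A count kept its reading within 1.5 times, and a share within its 95% interval. The number of Runx3-bound regions (12) moved to 7 in the gene bodies alone and to 21 with assignment to the nearest protein-coding TSS, and lay between 8 and 14 otherwise. Genes with at least 1 numbered 5 to 7. The number of H3K4me1-marked regions (169) moved to 89 with neighbours within 1000 bp merged and to 103 with regions at or above the median width. The share with H3K4me1 moved to 75.0% with the midpoint inside, and the share with a RUNX motif to 41.7% in the 100 bp around the midpoint. The share of protein-coding genes with a Runx3-bound region (19.8%) moved to 8.52% in gene bodies, 30.8% with a margin of 50 kb, 25.7% among genes with H3K4me1, 25.5% among genes with windows as long and 55.6% among genes with as much covered length. In the list of 44 genes, 17 held a region with a margin of 50 kb. Each alternative changes which regions or genes are counted. No stricter calling threshold could be tried, as the lists hold no score. The windows by length and by covered length, the 100 bp and the alternatives for the 44 genes were chosen after the data were examined. At single genes, 70 of 110 alternative counts kept their reading. Tgfbr1, Smad2 and Smad4 had 0 Runx3-bound regions under all 6 alternatives. Of these, the gene body alone, the margin of 5 kb and the median width count parts of the main set, so 0 was fixed there. With a margin of 50 kb, Tgfbr1 stayed at 0 narrowly, as its nearest region lay 50006 bp away. No paired analysis was possible because repeats were joined before calling, so that no repeat could be left out either.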
